A study of Mus musculus with 4 samples.

Results

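The genes described here are 8 genes of the red cell and platelet lineages, Klf1, Epor, Car1, Car2, Pf4, Itga2b, Gp9 and Vwf, read in lymphoid-primed multipotent progenitors (LMPPs) of mouse bone marrow. They were taken as every probe set whose gene symbol in the platform annotation is exactly 1 of these names. Each had 1 probe set, so there were 8 genes of 18193 with a probe set of their own, and 8 probe sets of 45037. LMPPs were isolated by flow cytometry as lineage-negative, c-Kit-positive, Sca-1-positive cells high in Flt3, from C57Bl/6 mice aged 6 to 8 weeks. Wild-type mice gave 2 arrays and mice labelled Lyl1-null gave 2, with no treatment in either group. Lyl1 encodes a helix-loop-helix DNA-binding protein active in early blood cells, and the sources used here do not state which part of it the null allele removes. The labels do not say whether animals were pooled or whether the 2 arrays of a genotype came from separate mice. The p-values therefore reflect only how far these samples scatter, and that scatter may be technical. Values are RMA log2 expression values; RMA corrects background, equalises the distributions of arrays and summarises the probes of a probe set. Differences are Lyl1-null minus wild type.

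Red cells and platelets arise from a shared bipotent progenitor. LMPPs are known for strong lymphoid and myeloid potential with little capacity to form either of these lineages, though low transcript levels of their genes can be seen in early progenitors. In this pathway the zinc-finger factor Gata1, with partners such as Tal1 and Lmo2, switches on lineage genes. Klf1 then drives the red cell programme and Fli1 the platelet programme. Red cell precursors depend on erythropoietin, which acts through its receptor Epor and the kinase Jak2. Lyl1 is a close relative of Tal1, and both pair with E proteins to bind E-box motifs.

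The promoters of 4 of the genes are shown because they cover the pairs on which the results turn. Klf1 and Epor varied more between arrays of 1 genotype than between genotypes, and Pf4 and Itga2b are platelet-lineage genes whose differences between genotypes had opposite signs. The windows run from 250 bases before to 50 bases after the start site, 5′ to 3′ on the gene's strand, from RefSeq on GRCm38.p6. Of the 8 genes, 5 were matched in that table; Car1, Car2 and Vwf were not. Capitals mark GATA motifs (AGATAA, with T also allowed as its first letter and G as its last, on either strand) and E-boxes (CANNTG, which reads alike on both strands).
Klf1, chr8:84901732-84902031, plus strand: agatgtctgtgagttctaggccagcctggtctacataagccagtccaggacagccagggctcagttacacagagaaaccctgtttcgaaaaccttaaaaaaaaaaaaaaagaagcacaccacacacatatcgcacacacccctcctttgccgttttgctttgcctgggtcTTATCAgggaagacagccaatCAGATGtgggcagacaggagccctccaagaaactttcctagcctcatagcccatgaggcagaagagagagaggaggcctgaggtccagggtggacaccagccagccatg
Epor, chr9:21963527-21963826, minus strand: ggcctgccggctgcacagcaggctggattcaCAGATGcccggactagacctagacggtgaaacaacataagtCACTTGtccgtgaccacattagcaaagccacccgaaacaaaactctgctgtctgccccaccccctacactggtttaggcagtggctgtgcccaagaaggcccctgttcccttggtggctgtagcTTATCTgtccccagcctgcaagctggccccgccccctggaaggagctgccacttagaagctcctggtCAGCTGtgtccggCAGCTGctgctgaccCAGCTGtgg
Pf4, chr5:90772185-90772484, plus strand: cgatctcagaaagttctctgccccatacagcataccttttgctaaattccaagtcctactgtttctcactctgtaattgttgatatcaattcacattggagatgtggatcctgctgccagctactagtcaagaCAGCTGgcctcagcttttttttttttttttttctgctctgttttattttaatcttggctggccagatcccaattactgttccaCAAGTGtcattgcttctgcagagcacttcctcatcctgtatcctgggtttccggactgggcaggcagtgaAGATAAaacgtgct
Itga2b, chr11:102469834-102470133, minus strand: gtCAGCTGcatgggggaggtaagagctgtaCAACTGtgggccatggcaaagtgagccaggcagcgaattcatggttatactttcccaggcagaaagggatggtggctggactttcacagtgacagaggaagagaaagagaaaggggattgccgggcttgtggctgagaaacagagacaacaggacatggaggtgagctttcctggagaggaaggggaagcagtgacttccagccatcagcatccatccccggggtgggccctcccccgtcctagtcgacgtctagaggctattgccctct
Klf1 held 1 GATA motif beginning 80 bases before the start and 1 E-box beginning 59 bases before it. Epor held 1 GATA motif, 54 bases before the start, and 5 E-boxes. Pf4 held 1 GATA motif and 2 E-boxes, and Itga2b held 2 E-boxes and no GATA motif in this window. None of these matches overlapped another. The Gp9 window, not printed, held neither motif. Of 32851 promoter windows of the same length, 29.8% held a GATA motif, 72.3% an E-box and 22.9% both. A match describes letters in the window and is not evidence of binding.

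The check of the labels came first. Lyl1 was at 12.34 and 12.29 in wild type, 5.14 for the library labelled Lyl1-null replicate 1 and 10.32 for its replicate 2. The last value, 25.1% of that in wild type on the linear scale, goes against the label. Xist, the RNA of the inactive X chromosome, read 14.26 there and 5.81 to 6.30 elsewhere, and the Y-linked Eif2s3y read 8.44 there, 30.9% of wild type, and 10.07 to 10.15 elsewhere. That library also stood apart as a whole, with 1236 to 2222 probe sets at least 2-fold away from each other library, against 108 to 324 among the others. Its values were compressed, with an SD over probe sets of 2.34 against 2.48 and 2.47 in wild type. The sorting markers Flt3, at 11.26 to 12.12, and Kit, at 8.97 to 10.27 in their highest-mean probe sets, lay above 5.69 on all 4 arrays. That level, the median of all probe-set means, is used below to call a probe set dim. Because of that library, each Lyl1-null array is given on its own.

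None of the 8 genes passed the test between genotypes. In limma, with Benjamini-Hochberg adjustment over all 45037 probe sets at 0.05, 0 of 8 passed, beside 0.00444% of all probe sets (2 of 45037). Car2, Pf4 and Car1, 3 of the 8, had an unadjusted p under 0.05, beside 7.88% of all probe sets. Both Lyl1-null arrays lay below both wild-type arrays for Car1, Car2, Pf4 and Gp9, beside 17.0% of all probe sets. They lay above both for Itga2b, beside 27.3%. All 5 of these genes reached the dim level. Over genes whose highest-mean probe set did so, the shares were 24.0% below and 18.7% above. Klf1, Epor and Vwf overlapped between genotypes. In bulk samples such as these, fewer cells of a type and less RNA per cell cannot be told apart. With 2 arrays against 2, an exact two-sided permutation test of a single gene cannot go below p = 0.333.

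**Figure D1:**
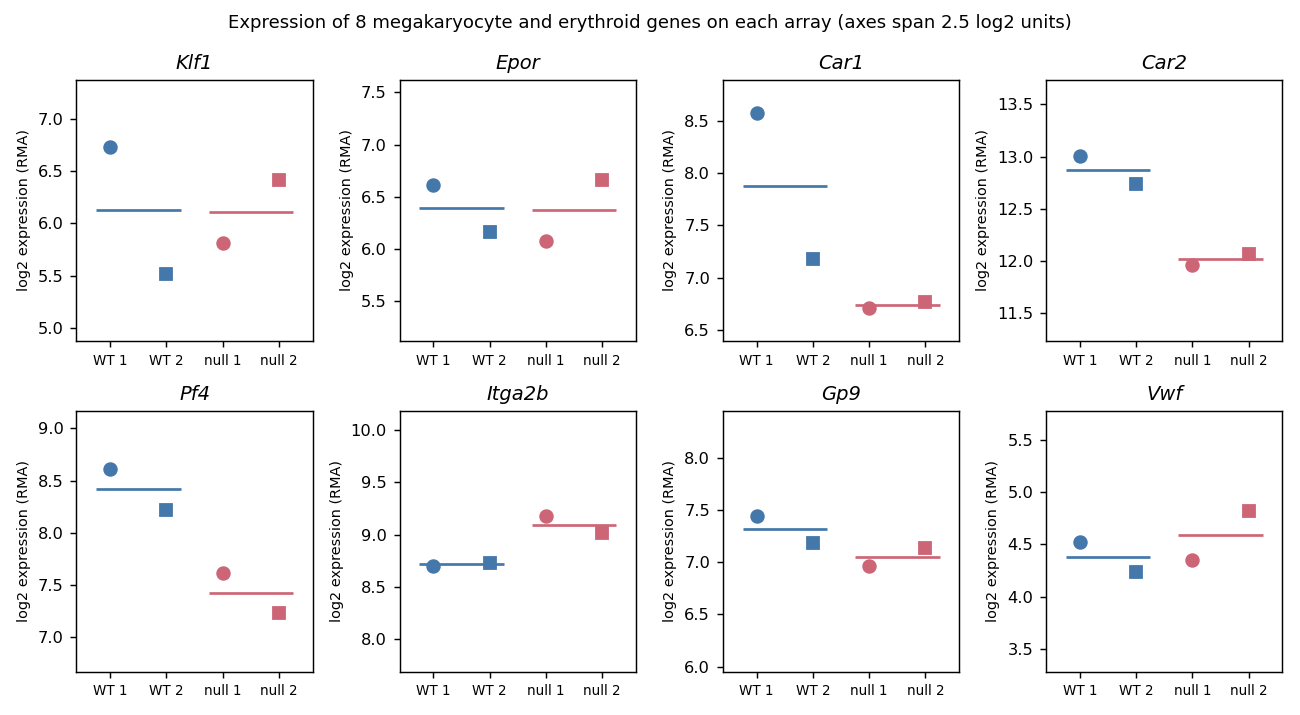
Log2 expression of the 8 genes on each array, wild type (WT) in blue and the libraries labelled Lyl1-null in red, with circles for replicate 1, squares for replicate 2 and lines at the mean of each pair. Car2 and Pf4 lie lower on both Lyl1-null arrays, with differences of −0.86 and −0.99, whereas Klf1 is spread over 1.21 within wild type alone.

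Klf1, the transcription factor that activates globin and other red cell genes, varied between replicates and showed next to no mean difference between genotypes. It was at 6.73 and 5.52 in wild type, at 5.81 in Lyl1-null replicate 1 and at 6.41 in Lyl1-null replicate 2. The highest and the lowest value were both wild type, and both Lyl1-null values fell between them. The difference was −0.014 (SE 0.42, 95% interval −1.06 to 1.03, limma adjusted p = 0.994). This interval is wide enough to hold a 2-fold change in either direction. The wild-type arrays differed by 1.21, a gap reached by 0.104% of all probe sets.

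Epor, the erythropoietin receptor, was high in the same libraries, over a narrower range. It was at 6.62 and 6.16 in wild type, at 6.08 in Lyl1-null replicate 1 and at 6.66 in Lyl1-null replicate 2. Wild-type replicate 1 and Lyl1-null replicate 2 were the higher of their pairs, as for Klf1. The difference was −0.018 (SE 0.26, 95% interval −0.66 to 0.63, limma adjusted p = 0.984). For both genes the sign depended on the libraries. Without wild-type replicate 1 the differences were 0.59 for Klf1 and 0.21 for Epor, and without wild-type replicate 2 they were −0.62 and −0.25. Leaving out Lyl1-null replicate 2 gave −0.32 and −0.31, and leaving out Lyl1-null replicate 1 gave 0.29 and 0.27.

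Car1 and Car2 encode cytosolic carbonic anhydrases, enzymes that interconvert carbon dioxide and bicarbonate and are abundant in red cells. Car1 was at 8.57 and 7.18 in wild type and at 6.71 and 6.76 in Lyl1-null replicates 1 and 2. The Lyl1-null values nearly coincided below both wild-type values, while wild-type replicate 1 stood well above replicate 2. The difference was −1.14 (SE 0.44, limma adjusted p = 0.581), or 2.20-fold lower. It was smaller than the gap of 1.40 between the wild-type arrays, a gap reached by 0.0688% of all probe sets. Without wild-type replicate 1 it was −0.44, and without wild-type replicate 2 it was −1.84.

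Car2 gave a tighter picture. It was at 13.01 and 12.74 in wild type and at 11.97 and 12.07 in Lyl1-null replicates 1 and 2. The genotypes did not overlap, and the spread within each was small beside the distance between them. The difference was −0.86 (SE 0.17, 95% interval −1.28 to −0.44, unadjusted p = 0.00259, limma adjusted p = 0.581), or 1.81-fold lower. It was −0.91 in Lyl1-null replicate 1 and −0.80 in Lyl1-null replicate 2, beside 0.27 between the wild-type arrays. Car1 and Car2 lie in a run of carbonic anhydrase genes on chromosome 3, in the order Car13, Car1, Car3, Car2. Neither of the others in that run had both Lyl1-null arrays below wild type. Car3 read 7.83 and 8.08 in wild type and 8.89 and 7.79 in Lyl1-null, and Car13, which is dim, had a difference of 0.27. Of the 14 other carbonic anhydrase genes measured, 0 passed the test, 6 had both Lyl1-null arrays above both wild-type arrays and 0 had both below, beside 28.4% and 16.6% of all genes. Their median difference was 0.24, against 0.057 over all genes. However, 8 of the 14 were dim. Of the 6 that reached the dim level, 3 had both Lyl1-null arrays above and 0 below, beside 18.7% and 24.0% of such genes. Their median was 0.28, against −0.047. The largest differences among the 14 were Car7 (0.63), Car12 (0.48) and the dim Car5a (0.46), each at a limma adjusted p of 0.581. Other probe sets, all dim, read 0.025 and −0.035 for Car12, with overlap, and 0.40 and 0.26 for Car7.

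Pf4, which encodes platelet factor 4, a chemokine stored in platelet granules, was lower on both Lyl1-null arrays. It was at 8.61 and 8.22 in wild type, at 7.62 in Lyl1-null replicate 1 and at 7.23 in Lyl1-null replicate 2. The genotypes did not overlap, and the gap between them was wider than that between either pair of replicates. The difference was −0.99 (SE 0.22, 95% interval −1.53 to −0.45, unadjusted p = 0.00435, limma adjusted p = 0.581), or 1.99-fold lower. It was −0.80 in Lyl1-null replicate 1 and −1.18 in Lyl1-null replicate 2, with the wild-type arrays 0.39 apart.

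Itga2b encodes integrin alpha-IIb (CD41), which pairs with integrin beta-3 (Itgb3) to form the platelet fibrinogen receptor. It was at 8.70 and 8.73 in wild type and at 9.18 and 9.02 in Lyl1-null replicates 1 and 2. Both Lyl1-null values were above both wild-type values, which were only 0.031 apart. The difference was 0.38 (SE 0.15, 95% interval −0.00058 to 0.76, limma adjusted p = 0.581), or 1.30-fold higher, and so opposite in sign to that of Pf4. It was 0.46 in Lyl1-null replicate 1 and 0.30 in Lyl1-null replicate 2.

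Gp9 encodes platelet glycoprotein IX, a subunit of the GPIb-IX-V receptor that binds von Willebrand factor. It was at 7.44 and 7.19 in wild type and at 6.96 and 7.13 in Lyl1-null replicates 1 and 2. The genotypes did not overlap, but Lyl1-null replicate 2 and wild-type replicate 2 were close. The difference was −0.27 (SE 0.17, limma adjusted p = 0.595), near the 0.25 between the wild-type arrays. Vwf encodes von Willebrand factor itself, made by megakaryocytes and endothelium. It was at 4.52 and 4.24 in wild type and at 4.35 and 4.82 in Lyl1-null replicates 1 and 2, below the dim level of 5.69 on every array. The difference was 0.21 (SE 0.22, limma adjusted p = 0.707), and it was −0.029 with Lyl1-null replicate 2 left out. The other 7 genes reached that level in their mean.

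**Figure D2:**
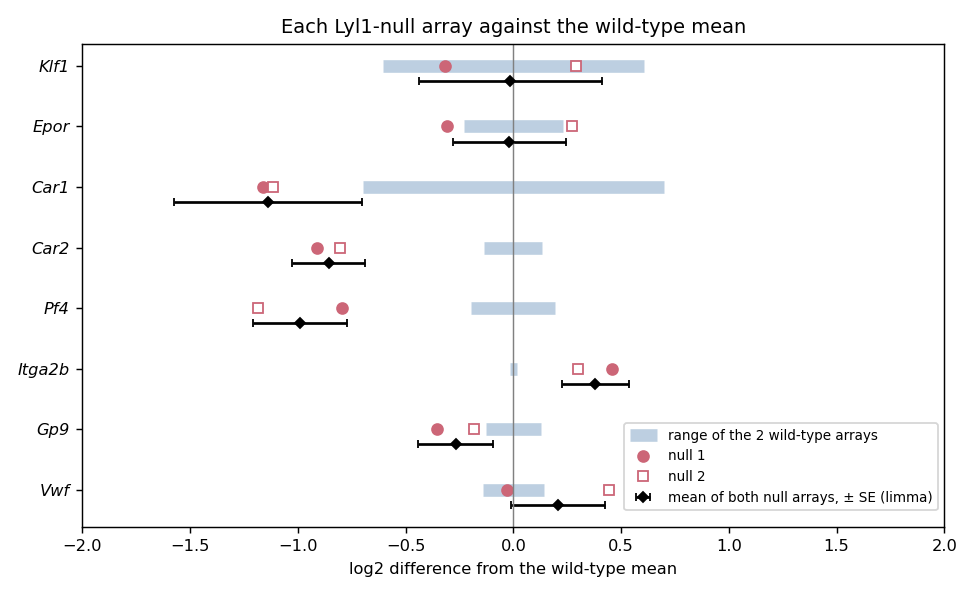
Difference of each Lyl1-null array from the wild-type mean (filled circle for replicate 1, open square for replicate 2), with the range of the 2 wild-type arrays as a blue bar and the mean difference with its SE from limma as a black diamond. For Car2 (−0.91 and −0.80), Pf4 (−0.80 and −1.18) and Itga2b (0.46 and 0.30) both arrays lie well outside the wild-type bar. For Klf1 both lie within it.

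Car2 and Pf4 passed the test only where a smaller test set and the removal of 1 library were combined, among the alternatives run. When only the highest-mean probe set of each gene was kept, and only where it reached the dim level, 11196 genes and 7 of the 8 remained. With all arrays 0 of the 7 passed, beside 0.00893% of genes. Leaving out Lyl1-null replicate 1, Car2 (adjusted p = 0.0385) and Pf4 (adjusted p = 0.0214) passed as lower, in limma, and so did 10.8% of all genes. Leaving out Lyl1-null replicate 2, the library that kept Lyl1 signal, 0 of the 7 passed, beside 0.196% of genes. Car2 then had an adjusted p of 0.258 and Pf4 of 0.444 in limma. In the fits of all probe sets without either of these libraries 0 of 8 passed, beside 0.00222% in each.

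The other red cell genes repeated the spread within genotypes seen for Klf1. Of a list of 38 red cell genes outside the 8, 31 were measured and 0 passed the test. The median difference was −0.022, against 0.057 over all genes. Both Lyl1-null arrays were above both wild-type arrays for 8 of the 31 and below for 2, beside 28.4% and 16.6% of all genes. Yet 25 of the 31 were higher in wild-type replicate 1 than in replicate 2, where 48.9% of all genes were, with a median gap of 0.32. In 5 of the 31 that gap reached 1 log2 unit, beside 0.236% of all genes. Among the Lyl1-null arrays 26 of the 31 were higher in replicate 2 than in replicate 1, where 56.0% of all genes were, with a median gap of 0.40. The mean of the list was 7.25 and 6.75 in wild type and 6.81 and 7.17 in Lyl1-null replicates 1 and 2.

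Those 5 genes were named after their values had been seen, by the size of the wild-type gap. The measured globin genes had smaller gaps, 0.32 for Hba-a2 and, in dim probe sets, −0.030 for Hba-a1 and 0.018 for Hbb-bh1. Slc4a1, the anion exchanger band 3 of the red cell membrane, was at 7.91 and 5.48 in wild type and at 6.39 and 7.34 in Lyl1-null replicates 1 and 2. A second Slc4a1 probe set read 6.98 and 5.40 in wild type and 6.02 and 6.33 in Lyl1-null. Cldn13, a claudin of red cell precursors, was at 9.03 and 7.37 in wild type and at 7.12 and 8.79 in Lyl1-null. As for Epor and Klf1, wild-type replicate 1 and Lyl1-null replicate 2 were the high ones. Rhag, an ammonium channel of the red cell surface that was dim on every array, was at 5.35 and 4.25 in wild type and at 4.30 and 5.22 in Lyl1-null. Alas2, the first enzyme of haem synthesis in red cells, was at 6.22 and 5.07 in wild type and at 5.91 and 6.63 in Lyl1-null. Ermap, a membrane protein of red cell precursors, was at 8.38 and 7.20 in wild type and at 7.04 and 7.70 in Lyl1-null. Gata1 was at 7.66 and 6.84 in wild type and at 7.06 and 7.20 in Lyl1-null.

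**Figure D3:**
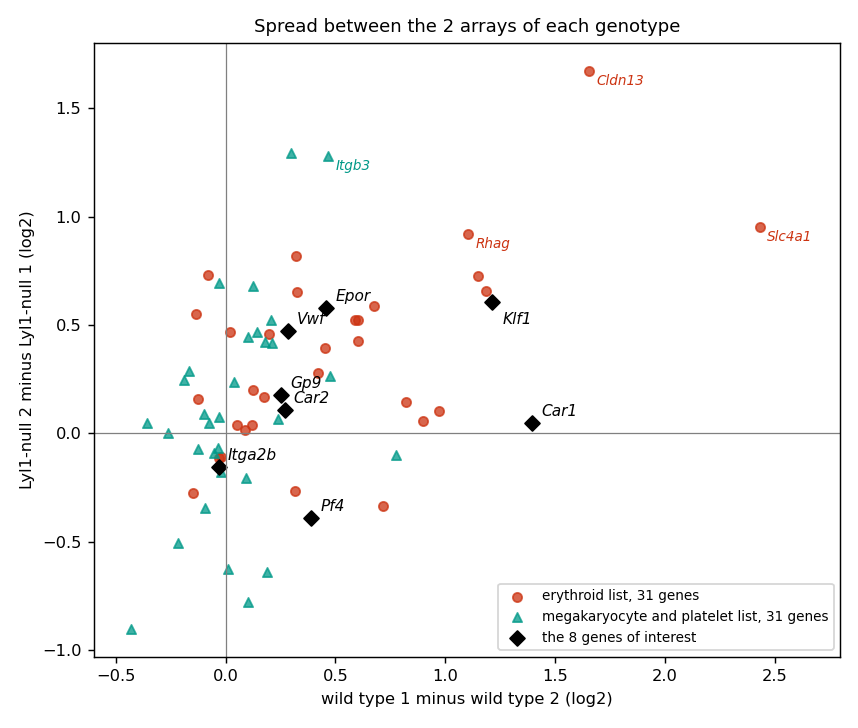
Gap between the 2 wild-type arrays (horizontal, replicate 1 minus replicate 2, log2) against the gap between the 2 Lyl1-null arrays (vertical, replicate 2 minus replicate 1, log2) for the 31 red cell list genes (circles), the 31 megakaryocyte and platelet list genes (triangles) and the 8 genes (diamonds). Red cell genes lie to the right, with Slc4a1 and Cldn13 farthest out and Klf1 among them. The platelet genes scatter around 0 on the horizontal axis, with a median of 0.011.

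Among the 31 measured red cell genes, 8 had both Lyl1-null arrays above both wild-type arrays and 2 had both below. Only the largest of these differences are named here. Aqp1, the water channel of red cells and endothelium, was at 6.67 and 5.77 in wild type and at 5.45 and 5.51 in Lyl1-null (difference −0.74, SE 0.30, limma adjusted p = 0.581). That pattern of a high wild-type replicate 1 and nearly equal Lyl1-null values was close to that of Car1. Gypc, a red cell membrane glycoprotein, had a difference of −0.32, and Xk, a blood group membrane protein, one of 0.55, both at an adjusted p of 0.581. Aqp1 and Gypc were the 2 lower genes, and Xk had the largest difference of the 8 higher ones. The 7 listed genes that were not measured were not analysed here.

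Megakaryocyte and platelet genes outside the 8 went both ways, at shares near those of all genes. Of 35 listed, 31 were measured and 0 passed the test. Both Lyl1-null arrays were above both wild-type arrays for 10 and below for 6, beside 28.4% and 16.6% of all genes, and the median difference was 0.15 against 0.057 over all genes. Among the 31, 15 reached the dim level, and over these the median was −0.067 against −0.047 over all genes that did so. Of the 15, 4 had both Lyl1-null arrays above and 5 below, beside 18.7% and 24.0%. Mmrn1, the platelet protein multimerin that stores factor V, was at 9.90 and 9.12 in wild type and at 8.02 and 7.91 in Lyl1-null replicates 1 and 2. Its difference was −1.55 (SE 0.27, limma adjusted p = 0.581), with no overlap. P2rx1, an ATP-gated channel of platelets, was at 7.66 and 7.76 in wild type and at 7.17 and 6.82 in Lyl1-null, a difference of −0.71. A second P2rx1 probe set read −0.30.

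The partner of Itga2b in the fibrinogen receptor was high mainly on 1 array. Itgb3 was at 8.03 and 7.57 in wild type, at 8.15 in Lyl1-null replicate 1 and at 9.43 in Lyl1-null replicate 2. The value in replicate 1 was just above wild type, and the difference of 0.99 (SE 0.43, limma adjusted p = 0.581) came mostly from replicate 2. For proteins that regulate this receptor inside the cell, the genotypes overlapped in the highest-mean probe set of each. Their differences were −0.39 for kindlin-3 (Fermt3), −0.19 for talin (Tln1), −0.053 for the Rap1 effector Apbb1ip, −0.022 for Cib1 and 0.31 for the exchange factor Rasgrp2. Other Fermt3 probe sets read −0.76, −0.46 and −0.44, the first and last of them below wild type on both Lyl1-null arrays. Those of Rasgrp2 read −0.43, −0.28 and 0.25, those of Tln1 −0.22 and −0.18, and 1 of Cib1 0.13. The Rasgrp2 probe set at −0.28 and the Tln1 probe set at −0.18 also had both Lyl1-null arrays below wild type. Among the partners of Gp9, Gp5 was at 6.18 and 6.00 in wild type and at 6.19 and 6.61 in Lyl1-null, and the dim Gp1bb had a difference of 0.21. Both thus went opposite to Gp9, and none of these genes passed the test.

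**Figure D4:**
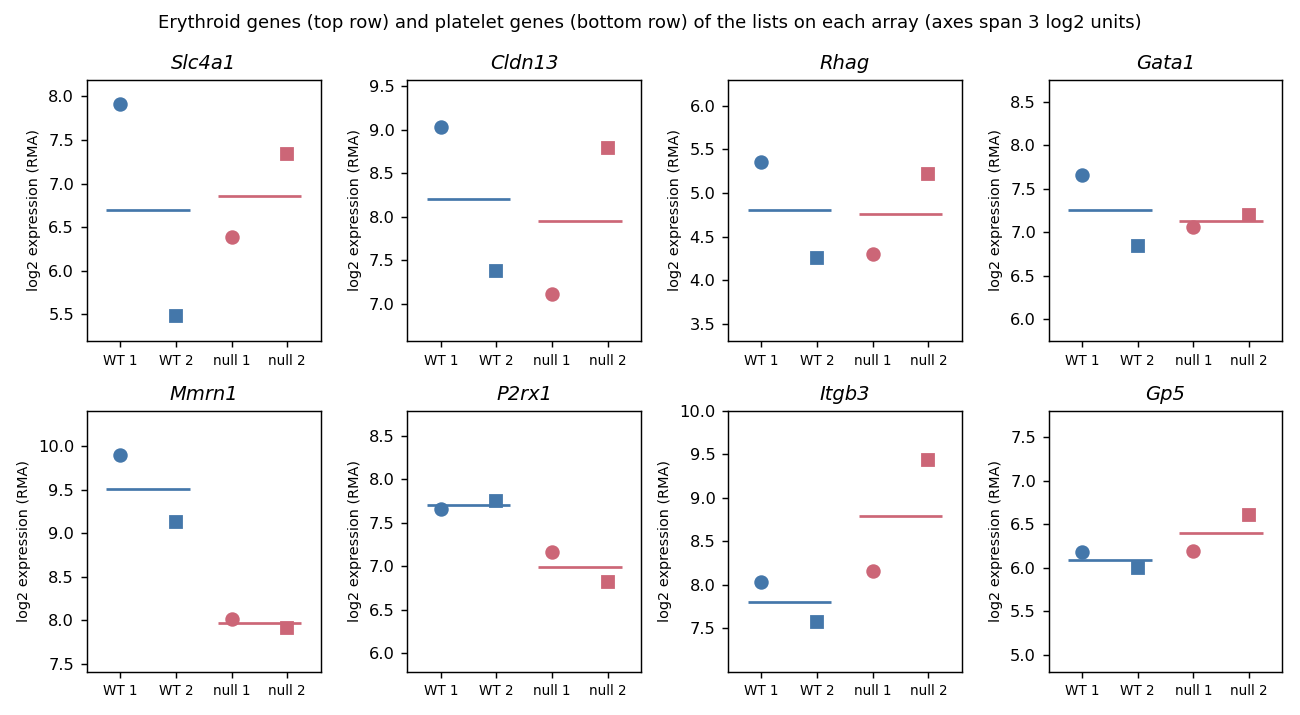
Log2 expression on each array of 4 red cell genes (top) and 4 platelet genes (bottom) from the lists, with circles for replicate 1, squares for replicate 2 and lines at the mean of each pair. Slc4a1, Cldn13 and the dim Rhag are high in wild-type replicate 1 and Lyl1-null replicate 2. Mmrn1 and P2rx1 are lower on both Lyl1-null arrays (−1.55 and −0.71), and Itgb3 is highest in Lyl1-null replicate 2 at 9.43.

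Of the transcription factors of both lineages 25 were measured and 0 passed the test. In 12 the genotypes overlapped, 11 had both Lyl1-null arrays below both wild-type arrays and 2 had both above, beside 16.6% and 28.4% of all genes. Since 24 of the 25 reached the dim level, the shares among genes that did so are the closer comparison, 24.0% below and 18.7% above. The median was −0.19 in Lyl1-null replicate 1 and −0.34 in Lyl1-null replicate 2, against −0.0086 and −0.078 over genes that reached that level. The gate and lymphoid priming markers, all 10 of which reached it, had medians of −0.11 and −0.51. For both lists the median was thus lower in the compressed replicate 2, and the part of that library in the difference was not tested. The lists are not separate, as Ikzf1 (−0.24), 1 of the 11 lower factors, is in both. The repressor Zbtb7a was at 7.46 and 7.73 in wild type and at 7.35 and 6.00 in Lyl1-null. Ldb1, the adaptor that ties Gata1 and Tal1 into 1 complex, was at 10.87 and 11.15 in wild type and at 10.78 and 9.42 in Lyl1-null. In both, Lyl1-null replicate 1 was close to wild type and replicate 2 was far below. Klf3, a repressor activated by Klf1, had a difference of −0.87 (SE 0.20, limma adjusted p = 0.581) and was lower on both arrays, at 8.94 and 8.53 against 9.49 and 9.73. Other probe sets above the dim level read 0.27 and 0.087 for Zbtb7a and from −0.67 to 0.33 for Klf3.

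Signalling genes downstream of Epor were likewise mixed. Of 17 measured, 0 passed the test, 7 had both Lyl1-null arrays below both wild-type arrays and 4 had both above, beside 24.0% and 18.7% of genes above the dim level, which all 17 reached. Stat5b, a transcription factor activated by the receptor, was at 9.46 and 9.71 in wild type, 9.31 in Lyl1-null replicate 1 and 8.13 in replicate 2. Another Stat5b probe set went the opposite way (0.52). The docking protein gene Gab1 had a difference of −0.71 (SE 0.17) and the feedback inhibitor gene Socs2 one of 0.60 (SE 0.24), both at a limma adjusted p of 0.581. A second Gab1 probe set read −0.85, and others of Socs2 read 0.80 and 0.32.

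Markers of other cells were read beside these results, and in each list 0 genes passed the test. Endothelial markers, relevant to Vwf, had a mean of 6.10 and 6.12 in wild type and of 5.98 and 5.93 in Lyl1-null over 15 genes, with 6 of the 15 dim, among them the defining Cdh5 (3.76 to 4.12). Egfl7 (−1.52) and Cldn5 (−1.19), which blood progenitors or other cells can also express, had both Lyl1-null arrays below wild type, and Nos3 (0.54) had both above. Mature lineage markers had a mean of 6.17 and 6.13 in wild type and of 6.67 and 6.81 in Lyl1-null over 11 genes. In that list both Lyl1-null arrays were above wild type for 7 genes and below for 1, beside 28.4% and 16.6% of all genes. Of the 11, 9 reached the dim level, and over all genes that did so the shares were 18.7% and 24.0%. The neutrophil genes Ngp (1.997), S100a8 (1.64) and Ltf (1.47) had the largest differences, at limma adjusted p-values of 0.213, 0.263 and 0.500. The neutrophil elastase gene Elane (−0.022) and the dim Itgam (0.26) overlapped, and the macrophage receptor gene Csf1r (−0.24) was the 1 below. The gate and lymphoid priming markers had a mean of 11.09 and 11.16 in wild type and of 11.07 and 10.79 in Lyl1-null over 10 genes. Kit (−0.90), Cd34 (−0.56) and Il7r (0.65) were the largest there, with a second Il7r probe set at 0.27 and a second Kit probe set, dim on all 4 arrays, at 0.0027. The part of these cell types in the differences of Car1, Car2, Pf4 and Itga2b was not tested.

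For the 4 genes whose arrays spanned at least 1 log2 unit, the genes with the most similar profile over the 4 arrays were sought. Likeness was the root mean square distance between profiles centred on their means, over genes that reached the dim level. Nearest to Car2 were Gimap5 (distance 0.052), a lymphocyte GTPase, and Rhob (0.056), a small GTPase. Nearest to Pf4 were Relb (0.017), an NF-kappaB subunit, and Fstl1 (0.083), a secreted glycoprotein. Nearest to Klf1 were Gda (0.089), the guanine deaminase, and Cd5l (0.11), a protein secreted by macrophages. Cd5l was at 7.40 and 6.00 in wild type and at 6.18 and 6.85 in Lyl1-null replicates 1 and 2. Nearest to Car1 were Klf2 (0.19), a lymphocyte and endothelial factor, and Msrb3 (0.26), a methionine sulfoxide reductase. Over 4 arrays and so many genes close matches are easily found, and these names are a description only.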

How the data were processed

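The authors deposited log2 expression values per probe set, produced by RMA per the submitters' processing notes. The RMA version and the set of arrays normalized together were not given in the sources used here. With so few arrays precision is limited, and no normalization was added. The platform annotation gave 1 symbol to 34945 of 45037 probe sets, several to 932 and none to 9160, and only the first kind named a gene. All 8 genes kept their symbol in the RefSeq table. Every probe set entered limma 3.58.1 under R 4.3.3 (lmFit, eBayes, two-sided, Benjamini-Hochberg at 0.05), which was tested on simulated data and gives all adjusted p-values and SEs. Other genes were read from their highest-mean probe set, 18193 in all. From each list up to 4 genes past the threshold were named, or else the 3 largest differences without overlap between genotypes; short lists were named whole. The genes and lists were chosen with earlier results of these data known. The alternatives were a filter, 1 probe set per gene, quantile normalization, median centring, other priors, array weights, a block for replicate number, and leaving out single libraries. Over all probe sets, arrays of the same replicate number deviated from their group means with a correlation of −0.24, so the numbers were not taken as pairs.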

Additional observations from a re-analysis of the deposited data

How the results depend on the processing

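The differences of Car1, Car2, Pf4, Itga2b and Gp9 kept their sign under all 18 alternatives. They ran from −1.84 to −0.44 for Car1, −0.99 to −0.72 for Car2 and −1.19 to −0.79 for Pf4. For Itga2b they ran from 0.30 to 0.52, and for Gp9 from −0.39 to −0.13. Filters, priors, weights and blocks left these differences unchanged. As the genotypes did not overlap in these genes, leaving out 1 library could not change the sign. Only quantile normalization and median centring could have done so. Epor read 0.026 with quantile normalization. With single libraries left out, Klf1 ranged from −0.62 to 0.59, Epor from −0.31 to 0.27 and Vwf from −0.029 to 0.44; the cause was not tested. The number of probe sets past the threshold, 2 with all arrays, was 4 with 1 probe set per gene, 9 with quantile normalization, 12 with array weights, 3 with median centring and 0 to 1 with 1 library left out. With 1 probe set per gene that reached the dim level, an alternative added after the data had been seen, 1 passed, and 1 to 1652 with 1 library left out, where 0 to 2 of the 7 genes present passed. The count was 1652 without Lyl1-null replicate 1 and 22 without Lyl1-null replicate 2. In that setting Klf1 read 0.59 and Epor 0.21 without wild-type replicate 1, and 0.29 and 0.27 without Lyl1-null replicate 1. With the replicate number as a block 0 probe sets passed, and none of the 8. A crossed replicate block, which pairs unlike numbers and was also added after the data had been seen, left 2 and none of the 8. A fit without 1 library assumes that the lone library varies like the other group. Centring each array on its median moved every difference by −0.075. Dim genes such as Vwf have values near background, so a difference there can be understated. It can also be overstated. The median difference of Lyl1-null replicate 2 from wild type was 0.090 over all probe sets and −0.10 over those that reached the dim level. Vwf read 0.44 in that library and −0.029 in Lyl1-null replicate 1, and its difference was 0.065 with quantile normalization. The part of that library was not tested.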

Other observations

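Markers of 2 further progenitor and blood cell types share genes with these lineages. Of 15 stem cell markers, 13 were measured and 0 passed the limma test. Both Lyl1-null arrays were above both wild-type arrays for 4 of the 13 and below for 1, beside 28.4% and 16.6% of all genes. The largest differences among these were those of the homeobox gene Hoxb5 (0.68, dim on every array), the transcription factor gene Hlf (−0.62) and the repressor Gfi1b (0.48). Gfi1b is needed for both red cells and platelets. A second Hlf probe set read −0.57. The median over the list was 0.018, against 0.057 over all genes. Of 13 mast cell and basophil markers, 11 were measured, 0 passed and the median was 0.0092. Here both Lyl1-null arrays were above both wild-type arrays for 1 and below for 3, beside 28.4% and 16.6% of all genes. Of the 11, 6 were dim. Among the 5 that reached the dim level, 0 were above and 2 below, beside 18.7% and 24.0% of such genes. Gata2, at 10.48 and 10.47 in wild type and 9.54 and 9.77 in Lyl1-null, and the basophil protease gene Mcpt8, at 7.62 and 7.38 against 6.95 and 6.44, were lower on both Lyl1-null arrays. The last of the 3 lower genes was the dim Fcer1a, with a difference of −0.080. Cpa3 (−0.052), Hdc (0.074) and Cyp11a1 (0.086), which reached the dim level, overlapped between genotypes. The dim mast cell tryptase gene Tpsb2 had a difference of 0.29.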
